A study of Saccharomyces cerevisiae with 3 samples.

Results

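The genes described here encode 7 phosphatases of budding yeast. PHO5 (YBR093C), PHO11 (YAR071W), PHO12 (YHR215W) and PHO3 (YBR092C) encode acid phosphatases that are secreted to the cell surface, PHO8 (YDR481C) encodes the alkaline phosphatase of the vacuole, and PHO13 (YDL236W) and PHM8 (YER037W) encode soluble phosphatases inside the cell. They were picked by their systematic names from a table of 6212 genes, with values of the same comparison already known, so their ratios are a description and carry no test. All 7 had a value on all 3 arrays. Secreted and intracellular enzymes are set against each other on each array.

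Each ratio compares a tetO:HAL3 vhs3::URA3 strain with wild type, both in the JA100 background. In the mutant VHS3 is disrupted by the marker URA3 and HAL3 is under the tetO promoter, which doxycycline shuts down. Both strains were kept at 28 °C in synthetic complete medium and received 100 µg/ml doxycycline for 15 h, so the drug is common to both and no culture without it is part of the comparison. According to the labels there were 2 biological replicates on 3 two-colour arrays. Replicate 1 was hybridised once with the mutant in Cy5 and once with the dyes exchanged, and the third, labelled replicate 2, had the mutant in Cy5.

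The numerator of the deposited ratios is not stated outright and was read as likely mutant over wild type. The array titles write wild type/mutant where the mutant was in Cy5 and mutant/wild type where it was in Cy3. That order follows the dyes, with Cy3 first. Taken as ratios, the titles would put wild type on top on both arrays with the mutant in Cy5. They would also give opposite directions for the dye-swap pair of replicate 1, whose values correlated at r = 0.508 across genes. The reading used here rests on VHS3 (YOR054C). Its log2 ratio read that way was −2.06 and −2.50 on the arrays of replicate 1 but 0.09 on the hybridisation labelled replicate 2. HAL3 (YKR072C), which RefSeq calls SIS2, followed with −1.33, −1.29 and −0.14. URA3 (YEL021W), the marker placed in the mutant, was lower there on every array under this reading, at −1.40, −0.82 and −0.33, which does not go with a marker gained in the mutant. Which URA3 allele wild type carries is not given in the labels, so the direction remains a likely one. The altered genes were thus low on both arrays of replicate 1 only, and the hybridisation labelled replicate 2 went against its label for VHS3. For that reason each value below is given by array, and for that hybridisation “mutant” stands for the channel labelled so. Between 4728 and 4894 genes were measured per array. Ratios on the hybridisation labelled replicate 2 were more tightly packed, with a robust SD (the scaled median absolute deviation of all genes) of 0.239, against 0.540 and 0.578 on the arrays of replicate 1.

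Budding yeast frees phosphate from organic phosphate esters outside the cell with secreted acid phosphatases. When phosphate is scarce, the inhibitor Pho81 holds back the Pho80-Pho85 kinase, and the transcription factor Pho4, acting with Pho2, enters the nucleus and activates PHO5, PHO11, PHO12, PHO8, the transporter gene PHO84 and the VTC genes of polyphosphate synthesis. PHO3 stands apart in textbook accounts as the constitutive acid phosphatase, which is repressed by thiamine and acts on thiamine phosphates. Pho8 removes phosphate from substrates inside the vacuole. Pho13 is a conserved phosphatase with a role in the repair of metabolites, and Phm8 is a nucleotidase that also acts in nucleotide salvage.

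PHO5, PHO11 and PHO12, the phosphate-repressible secreted enzymes, had the highest ratios of the 7 on every array. PHO5, the major acid phosphatase, had log2 ratios of 4.03 and 4.23 in replicate 1 and 2.09 on the hybridisation labelled replicate 2. PHO11 had 4.37 and 3.73 in replicate 1 and 2.28 on the hybridisation labelled replicate 2. PHO12 had 4.42 and 4.20, and 2.09, in the same order. In linear terms PHO5 was 16.4-fold and 18.8-fold higher in the mutant on the dye-swap pair and 4.26-fold higher on the hybridisation labelled replicate 2. All 9 of these values were positive, and every value of replicate 1 lay above every value of the hybridisation labelled replicate 2.

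The means over the replicates were 3.11 ± 1.44 for PHO5, 3.16 ± 1.25 for PHO11 and 3.20 ± 1.57 for PHO12 (log2 ratio, SD, n = 2). The 3 genes could not be put in order, since their means differed by at most 0.05 between neighbours and the order turned between arrays. PHO12 exceeded PHO11 by 0.04 ± 0.32 and PHO11 exceeded PHO5 by 0.05 ± 0.19 (SD, n = 2). Within an array the highest and lowest of the 3 were 0.38 and 0.50 apart in replicate 1 and 0.19 apart on the hybridisation labelled replicate 2. These genes, with PHO3, belong to 1 family of related sequence, so a spotted probe for one may also take up cDNA of another. How much of each value this makes up was not tested, and the 4 ratios are not independent of each other.

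PHO3, the secreted enzyme linked to thiamine, had smaller ratios than PHO5, its neighbour on chromosome II, on all 3 arrays. For PHO3 the dye-swap pair gave 2.17 and 1.17 and the hybridisation labelled replicate 2 gave 1.58, a mean of 1.62 ± 0.06 (SD, n = 2). The small SD arises from averaging the dye-swap pair, whose values were 1.00 apart, the widest dye gap of the 7 genes. A wider gap was seen for 12.2% of the 4546 genes measured on both arrays, where the median gap was 0.471. PHO5 exceeded PHO3 by 2.46 in replicate 1 and by 0.51 on the hybridisation labelled replicate 2, a mean difference of 1.49 ± 1.38 (SD, n = 2). The direction of that difference was the same on 3 of 3 arrays, while its size was close to its spread.

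PHO8, the vacuolar alkaline phosphatase, was the intracellular gene with the highest ratio and had nearly the same value on each array. It was at 1.07 and 1.28 in replicate 1 and at 1.11 on the hybridisation labelled replicate 2, a mean of 1.14 ± 0.05 (SD, n = 2), or 2.21-fold. The replicates differed by 0.07, and 88.3% of 4598 genes had a larger difference between replicates. PHO3 exceeded PHO8 by 0.49 in replicate 1 and by 0.48 on the hybridisation labelled replicate 2, but on the array of replicate 1 with the mutant in Cy3 PHO8 was above PHO3. Their order therefore depends on averaging the dyes.

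PHO13 and PHM8, the soluble enzymes, had ratios near 0 on all 3 arrays. PHO13 was at 0.51 and 0.05 in replicate 1 and at 0.23 on the hybridisation labelled replicate 2, a mean of 0.25 ± 0.04 (SD, n = 2). As for PHO3, the small SD arises from averaging the dye-swap pair, here 0.45 apart. PHM8 was at 0.16 and 0.42, and at 0.03, a mean of 0.16 ± 0.19 (SD, n = 2). Both were above 0 on each array, by less than 2-fold throughout. PHO13 exceeded PHM8 by 0.10 ± 0.15 (SD, n = 2), and their order turned on the array with the mutant in Cy3. PHO8 exceeded PHO13 by 0.90 in replicate 1 and by 0.88 on the hybridisation labelled replicate 2, with the same order on 3 of 3 arrays.

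**Figure D1:**
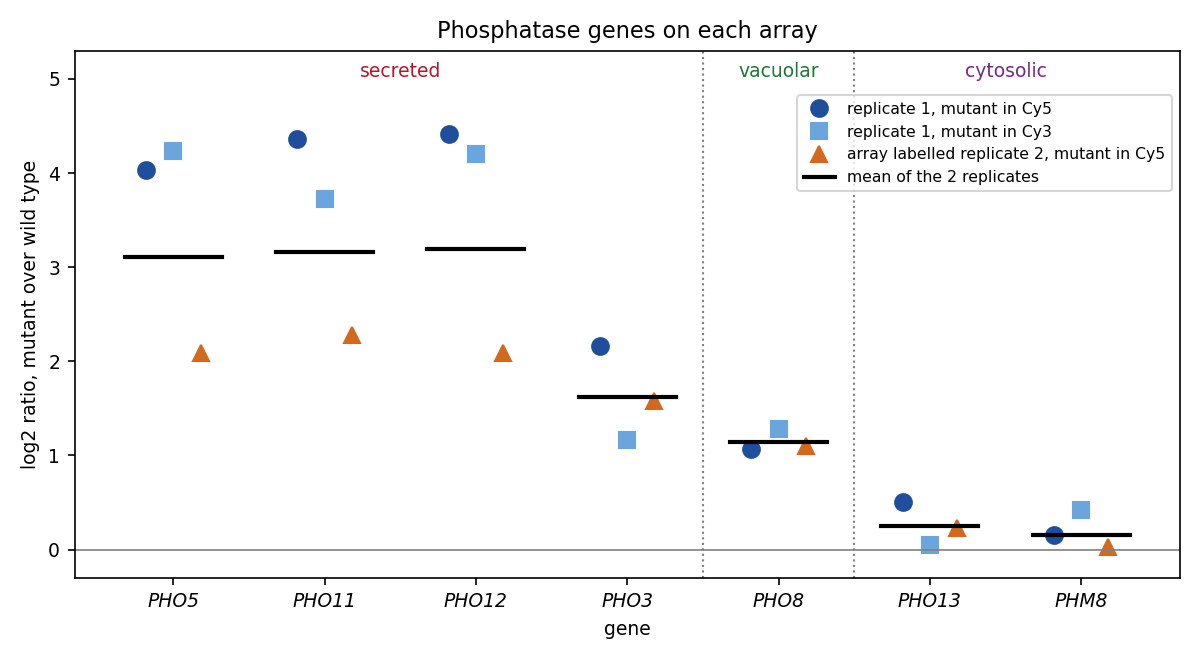
Log2 ratio of mutant over wild type (vertical axis) for each phosphatase gene (horizontal axis), with 1 symbol per array and a bar at the mean of the 2 replicates. PHO5, PHO11 and PHO12 lie between 3.73 and 4.42 in replicate 1 and between 2.09 and 2.28 on the hybridisation labelled replicate 2, while PHO8 stays between 1.07 and 1.28 and PHO13 and PHM8 lie at or below 0.51.

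Secreted enzymes had higher ratios than intracellular ones on each array. On the array of replicate 1 with the mutant in Cy5 the median log2 ratio was 4.20 for the 4 secreted genes and 0.51 for the 3 intracellular genes, a gap of 3.69. With the mutant in Cy3 the medians were 3.96 and 0.42 and the gap was 3.54. On the hybridisation labelled replicate 2 they were 2.09 and 0.23, a gap of 1.86. Averaged over the replicates the gap was 2.83 ± 1.37 (SD, n = 2), and it had the same direction on 3 of 3 arrays. Genes on 1 array are not replicates, so no test was made of this gap.

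The classes did not overlap on either array labelled as having the mutant in Cy5. There the lowest secreted gene, PHO3, stood at 2.17 in replicate 1 and at 1.58 on the hybridisation labelled replicate 2, above the highest intracellular gene, PHO8, at 1.07 and 1.11. With the mutant in Cy3 PHO3 was at 1.17 and PHO8 at 1.28, so 11 of 12 pairs of a secreted and an intracellular gene kept the order. The classes are also mixed in their known control, since PHO8 is a Pho4 target inside the cell and PHO3 is a secreted enzyme known for its response to thiamine. With PHO8 as the only intracellular gene the gap was 3.13 and 2.68 in replicate 1 and 0.99 on the hybridisation labelled replicate 2. Without PHO8 it was 3.87, 3.73 and 1.96 in the same order.

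The gap in units of each array's own spread was of similar size on all arrays. Divided by the robust SD it was 6.85 and 6.13 in replicate 1 and 7.79 on the hybridisation labelled replicate 2. PHO5 stood 7.47 and 7.32 robust SD above the median in replicate 1 and 8.76 on the hybridisation labelled replicate 2. PHO8, in contrast, stood at 1.99 and 2.22 in replicate 1 and at 4.63 on the hybridisation labelled replicate 2. The log2 ratios of PHO5, PHO11 and PHO12 on the hybridisation labelled replicate 2 averaged 51.7% of those in replicate 1, whereas PHO3 had 95.0% and PHO8 93.8%. The altered genes VHS3 and HAL3 and the spread of all genes also differed between these arrays, and their part in this was not tested.

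Ranks among all genes of an array show the same layers. PHO5, PHO11 and PHO12 held ranks 3 to 6 on every array, within 3 to 5 in replicate 1 with the mutant in Cy5 and within 4 to 6 with the mutant in Cy3. PHO3 held ranks 13 and 205 in replicate 1 and was at rank 11 on the hybridisation labelled replicate 2. PHO8 was at rank 136 and 141 in replicate 1 and at rank 16 on the hybridisation labelled replicate 2. PHO13 ranked 821, 2211 and 741 and PHM8 ranked 1865, 1146 and 2134 in the same order of arrays. PHO8 thus kept its ratio but moved up among the genes of the hybridisation labelled replicate 2, on which few other genes were far from 0.

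**Figure D2:**
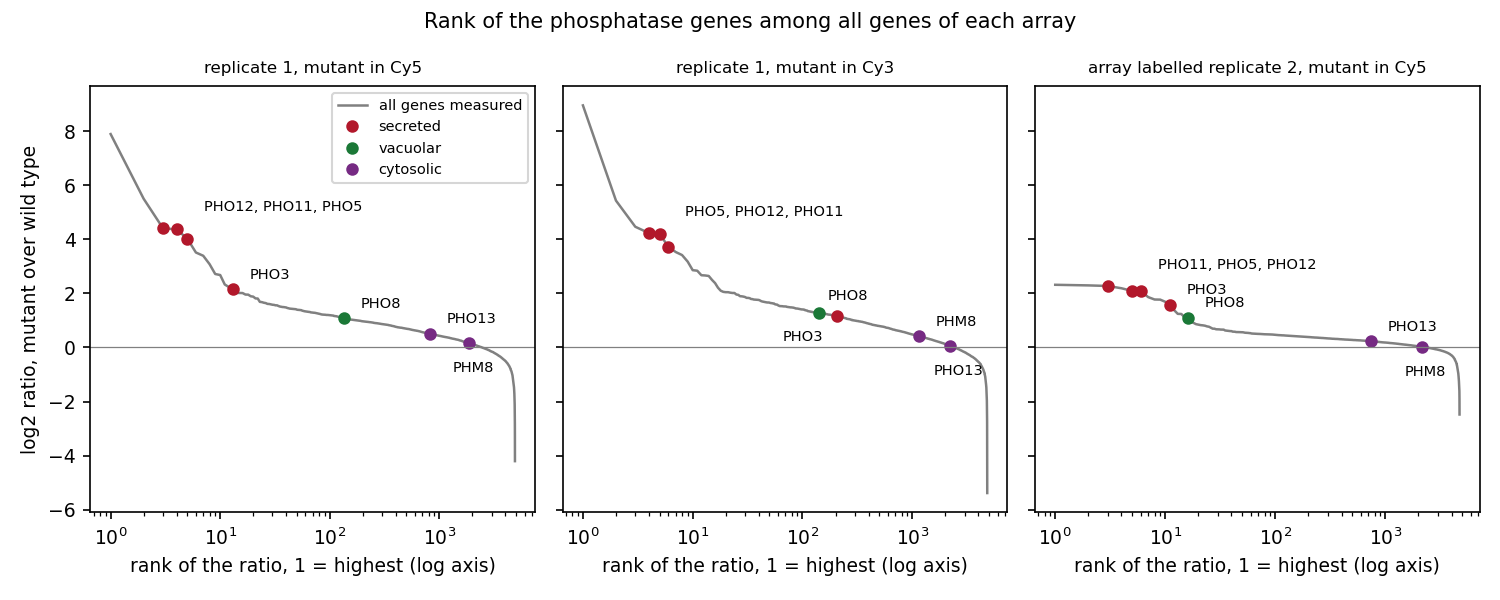
Log2 ratio of mutant over wild type (vertical axis) against the rank of the ratio among all genes measured on that array (horizontal log axis, rank 1 the highest), in 1 panel per array, with the phosphatase genes as coloured points on the line of all genes. PHO5, PHO11 and PHO12 occupy ranks 3 to 6 in each panel, and PHO8 sits at 136 and 141 in replicate 1 and at 16 on the hybridisation labelled replicate 2.

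Of the 7 genes, 5 were at least 2-fold higher in the channel labelled mutant both in replicate 1 and on the hybridisation labelled replicate 2, namely PHO5, PHO11, PHO12, PHO3 and PHO8. Of all 4598 genes with a value in both replicates 0.283% met that limit, 13 in number. On single arrays the same 5 genes passed 2-fold, against 3.72% and 6.1% of all genes measured in replicate 1 and 0.338% on the hybridisation labelled replicate 2. Since the genes were chosen on this contrast, nothing is read from these shares. By test, 0 of 4598 genes (0%), and so none of the 7, passed 0.05 after Benjamini-Hochberg adjustment in limma, a linear model with pooled variances fitted on the 2 replicates. At an unadjusted p under 0.05 there were 222 genes. A share of about 0.05 of the 4598 genes would fall there without any change, so 222 is no excess. The 3 arrays fitted as if independent gave 17 calls.

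The chromosomes that carry the 7 genes were near 0 as a whole. The median of the other genes of chromosome II, home of PHO3 and PHO5, was 0.02 and 0.16 in replicate 1 and −0.01 on the hybridisation labelled replicate 2. Chromosome VIII, which carries PHO12, had −0.02, 0.07 and −0.09, and chromosome I, which carries PHO11, had 0.04, −0.13 and −0.03. Chromosomes IV and V, with PHO8, PHO13 and PHM8, stayed between −0.07 and 0.01. The ratios are per unit of labelled RNA from a whole culture, so more or fewer cells with a transcript and more or less of it per cell cannot be told apart.

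**Figure D3:**
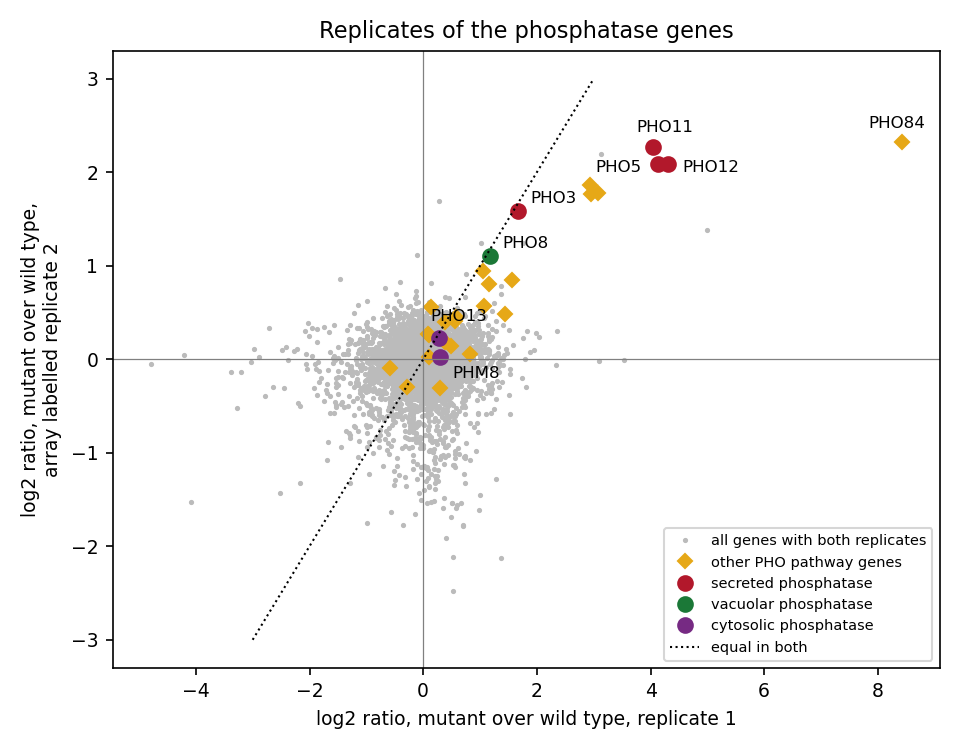
Log2 ratio of mutant over wild type in replicate 1 (horizontal axis, mean of the dye-swap pair) and on the hybridisation labelled replicate 2 (vertical axis) for 4598 genes, with the phosphatases and the other genes of the PHO pathway marked and a dotted line where both are equal. PHO3 and PHO8 lie next to the line, at 1.67 and 1.58 and at 1.18 and 1.11, while PHO5, PHO11 and PHO12 lie to its right.

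Genes around the phosphatases on their chromosomes did not share their ratios, with YAR068W as the exception. Up to 3 genes on each side in RefSeq's order were looked at, 33 in all without the members, of which 19 had a value in both replicates. Their medians were 0.01 in replicate 1 and 0.06 on the hybridisation labelled replicate 2, and 1 of them was at least 2-fold higher in both replicates. That gene, YAR068W, precedes PHO11 near the end of chromosome I and was at 1.49 and 0.55 in replicate 1 and at 1.24 on the hybridisation labelled replicate 2. YAR069C, a reading frame numbered between them that RefSeq does not list, was at 0.73, −0.04 and 0.24 and was singled out after its values were seen. RefSeq's order holds no gene beyond PHO11. YAR073W, numbered after PHO11 and likewise picked out with its values known, was at −1.41, −0.55 and −0.03. On the arrays of replicate 1 PBY1, on the far side of PHO5, was at −0.89 and 0.95, with 0.12 on the hybridisation labelled replicate 2. TIM12, next to PHO3, was measured only in replicate 1 with the mutant in Cy5, at 0.84.

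IMD2, an IMP dehydrogenase gene next to PHO12, was at −0.64 and −0.25 in replicate 1 and at 0.17 on the hybridisation labelled replicate 2. On the other side of PHO12, YHR214C-E was not among the genes of the table. CWC21, a splicing factor gene next to PHO8, was at 0.42, −0.53 and 0.28, and DIG2, on the other side of PHO8, was blank on all 3 arrays. PHO13 lies between AIM6, at −0.05, −0.05 and 0.24, and YPD1 of the osmosensing phosphorelay, at 0.18, 0.09 and 0.04. PHM8 lies between ARB1, a ribosome biogenesis ATPase at 0.44, 0.91 and 0.20, and KRE29, measured on the hybridisation labelled replicate 2 alone at 0.27. ARB1 was above PHM8 on all 3 arrays.

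**Figure D4:**
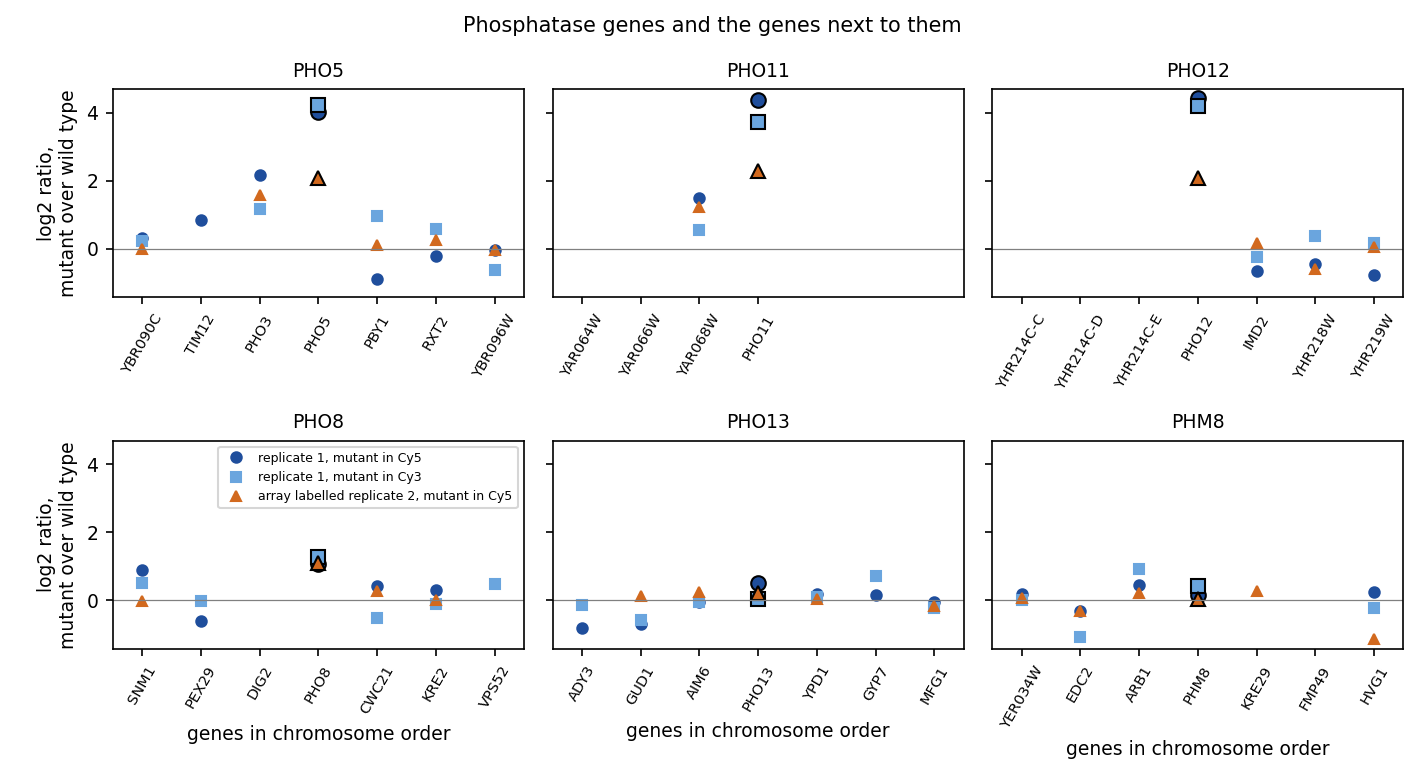
Log2 ratio of mutant over wild type (vertical axis) for 6 of the phosphatase genes (outlined symbols) and up to 3 genes on each side, in chromosome order without distances (horizontal axis), with 1 symbol per array and no symbol where a gene was blank or not listed. PHO5 and PHO3 stand above PBY1, RXT2 and YBR090C, and YAR068W at 1.49, 0.55 and 1.24 is the neighbour of PHO11 with raised values.

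Other genes of the PHO pathway were mostly above 0, as the phosphatases were. Of 29 genes on a list of transporters, polyphosphate genes, regulators and inositol pyrophosphate enzymes, 22 had a value in both replicates and 0 passed the test in either direction. With the dye-swap pair averaged, 19 of these 22 were above 0 and 2 below 0 in both replicates, against 26.6% and 24.6% of all genes. Their median was 0.57 in replicate 1 and 0.43 on the hybridisation labelled replicate 2, against 0.02 and 0.00 for all genes. PHO84, the high-affinity phosphate transporter, was at 7.90 and 8.96 in replicate 1 and at 2.32 on the hybridisation labelled replicate 2, above each phosphatase on each array. PHO81, the kinase inhibitor, was at 1.51, 1.63 and 0.84, below PHO3 in replicate 1 with the mutant in Cy5 and on the hybridisation labelled replicate 2. The 2 genes below 0 in both replicates were PHO91, at −0.18, −0.37 and −0.30, and PHO2, at −0.68, −0.50 and −0.09. Some of the 19 changed sign within the dye-swap pair, such as PHO89 at 0.24, −0.03 and 0.26.

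The genes with the profile most like the mean of PHO5, PHO11 and PHO12 were SPS22, FLO11, VTC3, VTC1 and GIT1. Likeness was the Euclidean distance between log2 ratios over the 3 arrays, computed for 4258 genes measured on each. SPS22, a spore wall gene, was nearest at a distance of 1.48, with 3.39 and 2.86 in replicate 1 and 2.19 on the hybridisation labelled replicate 2. FLO11, a cell surface flocculin, followed at 1.51, and VTC3, VTC1 and GIT1 at 1.72, 1.74 and 1.84. The first 2 are not on the PHO pathway list, and the other 3 had smaller ratios than PHO5 on every array. VTC3 had 2.72, 3.42 and 1.77, VTC1 had 3.08, 2.84 and 1.77, and GIT1, the glycerophosphoinositol permease, had 2.68, 3.18 and 1.86.

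The shortest distances to PHO8 were smaller than those to the mean of PHO5, PHO11 and PHO12. PHO8 lay lower, at ranks 136 and 141 in replicate 1, where more genes have similar ratios. The smaller distances therefore do not measure a closer likeness in behaviour. VTC4, the catalytic subunit of polyphosphate synthesis, was nearest at a distance of 0.33, with 1.15 and 1.16 in replicate 1 and 0.80 on the hybridisation labelled replicate 2. GFD2, PHO86, PNO1 and PHO81 followed at 0.52, 0.58, 0.59 and 0.61. PHO86 encodes a factor that lets Pho84 leave the endoplasmic reticulum, and PNO1 acts in ribosome assembly. On the hybridisation labelled replicate 2 each of the 5 was lower than PHO8, between 0.52 for PNO1 and 0.84 for PHO81.

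PHO3 had a higher mean than each thiamine gene measured in both replicates. Of 22 genes of thiamine synthesis, uptake and control, 12 had a value in both replicates, and 0 passed the test in either direction. The medians were −0.15 in replicate 1 and −0.02 on the hybridisation labelled replicate 2. In both replicates 0 genes were above 0 and 3 below, against 26.6% and 24.6% of all genes. The highest mean of these 12 was 0.33, against 1.62 for PHO3. THI3, a regulator of the pathway, was at −0.47, −0.15 and −0.03, and THI11, of pyrimidine synthesis for thiamine, at −0.27, −0.11 and −0.04. THI4, the thiazole synthase gene, was blank in replicate 1 and at −2.23 on the hybridisation labelled replicate 2, and was picked out after the values were known, as were the next 2 genes. THI80, thiamine pyrophosphokinase, was at 0.09, 1.60 and −0.18, above PHO3 on the array with the mutant in Cy3. THI12, measured only in replicate 1 with the mutant in Cy5, was at 1.04.

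Relatives of the soluble enzymes had medians close to 0, with single genes further away. Of 14 other phosphatase genes of the haloacid dehalogenase superfamily, to which Pho13 and Phm8 belong, 13 had a value in both replicates, and 0 passed the test in either direction. Their medians were −0.08 and −0.09, with 1 gene above 0 and 5 below 0 in both replicates, against 26.6% and 24.6% of all genes. GPP2, a glycerol phosphatase, was at −0.30, −0.72 and −0.13, and the plasma membrane phosphatase gene PSR1 at −0.13, −0.03 and −0.30. YKR070W was at −0.13, −0.17 and −0.12, and YOR131C at 0.43, 0.05 and 0.01. Single values went past 2-fold in 3 genes, which were picked out after their values were known and had opposite signs in the 2 replicates. GPP1, the other glycerol phosphatase, was at −1.03 and −1.25 in replicate 1 and at 0.34 on the hybridisation labelled replicate 2. SDT1, a pyrimidine nucleotidase related to PHM8, was at 0.65, 0.48 and −1.06, and SER2, phosphoserine phosphatase, at 0.46, 0.67 and −1.01.

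Genes that share a place or a pathway with Pho8 and Phm8 had medians near or below 0. Of 11 listed vacuolar hydrolases 7 were measured in both replicates, with medians of −0.32 and −0.13, 0 above 0 in both and 4 below. PRB1, vacuolar proteinase B, was at −0.24, −0.40 and −0.17. RNY1, a vacuolar RNase that supplies substrates for Pho8, was at −0.55, −0.34 and −0.26, below 0 on each array while PHO8 was above it. All 9 genes of RNA breakdown and nucleoside salvage were measured, with medians of 0.07 and −0.05, 3 above 0 and 2 below 0 in both replicates. Among all genes 26.6% were above 0 and 24.6% below 0 in both replicates. AAH1, adenine deaminase, was at 0.93, 0.72 and 0.05, and ADO1, adenosine kinase, at −0.38, −0.92 and −0.05. The test called 0 genes of either list.

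Genes on a list of other secreted and cell wall proteins had lower means than the acid phosphatases where measured in both replicates. This does not extend to all surface proteins. FLO11, at 5.51 and 4.47 in replicate 1 and 1.39 on the hybridisation labelled replicate 2, is not on that list, nor is SPS22. Of 20 listed, 17 were measured in both replicates and 0 passed the test in either direction. In both replicates 2 were above 0 and 6 below 0, against 26.6% and 24.6% of all genes. The medians were −0.13 and −0.07. The highest mean among these 17 was 0.27, against 1.62 for PHO3, the lowest of the secreted phosphatases. EXG1, a cell wall exoglucanase, was at 0.10, 0.08 and 0.40. CTS1, the chitinase of cell separation, was at −0.36, −0.999 and −0.02, and PIR3, a cell wall protein, at −0.48, −0.81 and −0.08. CRH1, a chitin transglycosylase, was at −0.05, −0.77 and −0.13. Outside these 17, and chosen after their values were seen, PLB2, a phospholipase B, was at 0.75 and 1.40 in replicate 1, above PHO3 with the mutant in Cy3, and SUC2, invertase, at −1.67 and −2.10, both blank on the hybridisation labelled replicate 2. DIA3, a gene related in sequence to the secreted acid phosphatases, was blank on all 3 arrays.

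**Figure D5:**
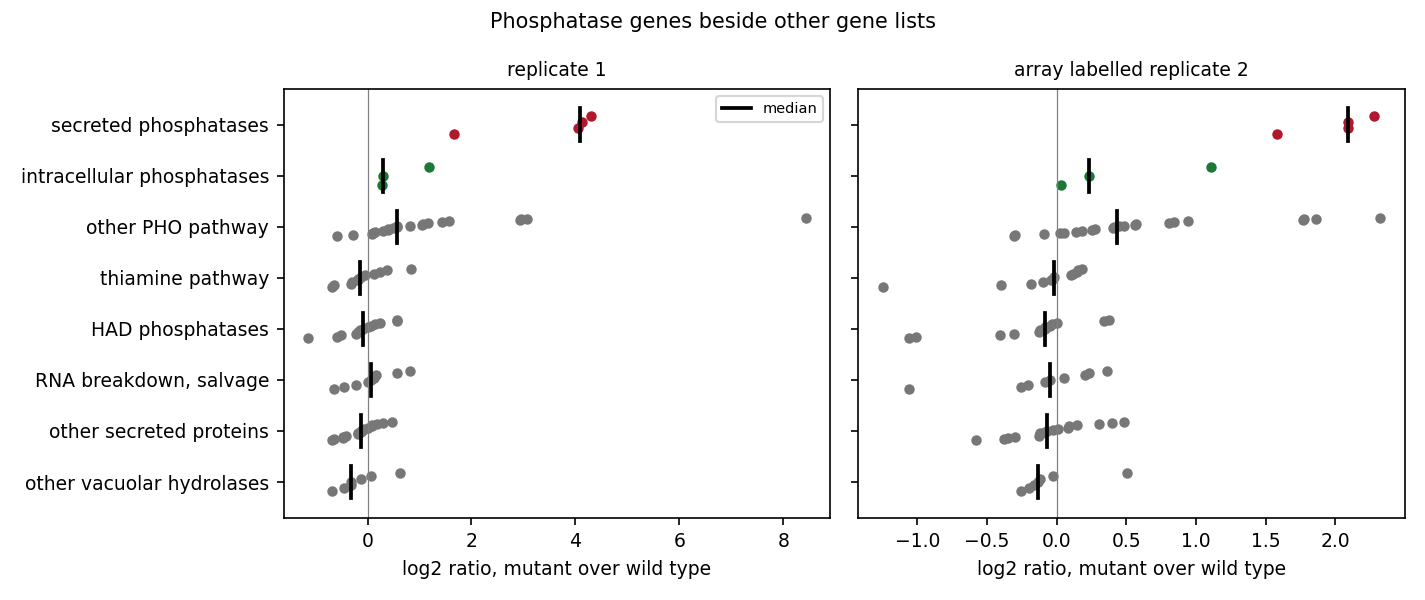
Log2 ratio of mutant over wild type (horizontal axes, which differ in range) for each gene with a value in both replicates, by list (rows), in replicate 1 (left) and on the hybridisation labelled replicate 2 (right), with a bar at each median. The medians are 4.09 and 2.09 for secreted phosphatases, 0.29 and 0.23 for intracellular ones and 0.57 and 0.43 for other PHO pathway genes, and lie between −0.32 and 0.07 for the other 5 lists.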

How the data were processed

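Total RNA was reverse transcribed with oligo(dT) from 8 µg and labelled with Cy5 or Cy3, per the labels' protocols. The deposited values are log2 ratios, 1 per gene and array. The scanner, any correction for background, spot filters and the normalization are not stated by the labels or the file, and intensities were not used, so distance from background is unknown. As deposited, 100% of the ratios were whole multiples of 0.001 to the table's rounding, and 11.6 to 13.2% with the sign turned. The swapped array correlated with its partner at r = 0.508 across genes, so it had been turned already, while both correlated with the hybridisation labelled replicate 2 at only 0.159 and 0.143. With the opposite numerator every value would change sign.

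Arrays were centred on their medians (as deposited 0.0229, 0.0072 and 0.0468), and the dye-swap pair, which shares its RNA, was averaged into 1 replicate. Genes with both replicates (4598) were fitted with limma 3.58.1 in R 4.3.3 (1 residual degree of freedom, two-sided, Benjamini-Hochberg). The procedure was tested on simulated data with equal spread and equal true change in both replicates. The arrays here differed in spread, so that test does not cover them. Descriptions used Python 3.11.15. RefSeq assembly R64 matched 5638 of 6212 identifiers. The genes and lists were chosen with earlier results of these data known. Named were the 7 members, HAL3 and VHS3, up to 5 genes per list with the largest mean and 1 sign on all arrays, adjacent genes, and the 5 nearest profiles. The labels call the replicates biological without naming separate cultures, so p-values measure the spread between these samples only. The planned promoter and protein comparisons were not run, as no sequences were used here.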

Additional observations from a re-analysis of the deposited data

How the results depend on the processing

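The 7 genes kept a positive log2 ratio in 63 of 63 recomputations (9 alternatives each). The secreted minus intracellular gap stayed positive in 14 of 14, from 1.86 to 3.80, the ends being the hybridisation labelled replicate 2 alone and replicate 1 alone. Some of these settings could not have changed the outcome, so the tallies do not measure robustness. A centring constant cancels in the gap, which stayed at 2.83 without centring and with mean centring. All 7 genes were on all 3 arrays, so keeping only such genes changed none of their values. Scaling an array by a positive factor cannot turn a sign on it. PHO3 ranged from 1.38 to 2.03, PHO8 from 1.09 to 1.42, PHO13 from 0.14 to 0.37 and PHM8 from 0.03 to 0.29. The count of genes past the threshold in limma, 0 in the main setting, was 13 with replicate 1 from its array with the mutant in Cy3, 4 with arrays scaled to 1 median absolute deviation, 12 with quantile normalization and 17 with the 3 arrays as if independent, which counts the dye-swap pair as 2 replicates. PHO5, PHO11 and PHO12 were among the calls in each of these 4 settings and PHO3 in the last one. Their calls thus depend on how the arrays are weighted and scaled. The cause was not tested. Genes past 2-fold in 1 direction in both replicates, 19 in the main setting (13 higher, 6 lower), were 71 at a limit of 1.5-fold and 8 at 3-fold, and 106 to 301 with 1 replicate left out, where the 2-fold limit has to be met only once. With either scaling PHO8 no longer reached 2-fold in both replicates, and at 3-fold neither PHO3 nor PHO8 did. Leaving out a replicate leaves limma no residual degree of freedom, so it gave no call count. Mutant and wild type share each array, so the test of their ratio against 0 already uses that pairing. The 3 arrays limit the precision throughout, and signal over background is unknown.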
